A study of Mus musculus with 3 samples.

Results

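Lineage-negative, Kit positive (LK) cells of mouse bone marrow hold a large group of cells with RNA of the monocyte lineage. They were picked out here by 3 genes: F13a1 (the A subunit of coagulation factor XIII, made by monocytes), Ms4a6c (a membrane protein of the MS4A family) and Ly86 (MD-1, the partner of the receptor CD180). A cell was taken when its unique molecular identifiers (UMIs, each standing for 1 captured RNA molecule) of these 3 genes summed to at least 5. Of the 3464 LK cells kept after filtering, 870 met the rule, which is 25.1% (95% interval 23.7% to 26.6%, exact binomial). The 3 libraries of the series together held 8824 cells after the same filter. Because measured RNA chose the cells, the levels of F13a1, Ms4a6c and Ly86 are no finding, and every difference from other LK cells is given as a description of the same cells, with no test. They are called monocyte-marker progenitors below. Commitment to a fate was not measured.

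The series holds single-cell 3' RNA libraries of LK cells, of LSK cells (lineage-negative, Sca-1 and Kit positive, a gate rich in stem and multipotent progenitors) and of total bone marrow (TBM), with 1 library per gate. Hips, spines, tibiae and femora gave the marrow. For the lineage-negative gates, cells bearing Ter119, Ly-6C, Ly-6G, CD11b, CD45R, CD5 or CD8a were depleted with antibodies. Neutrophil granule and hemoglobin RNA was abundant in TBM (values below), so depletion is not assumed for that library. The labels do not give the number, strain, genotype, sex or age of the mice, or whether LK cells were also gated for lack of Sca-1. They state 3441 LK, 1070 LSK and 3984 TBM cells, while the deposited matrices hold 3560, 1091 and 4317 barcodes, of which 3464, 1070 and 4290 passed the filter of at least 200 genes and at most 10% mitochondrial UMIs. Since each gate is 1 library, cells are not replicates and no p-value is given. Every interval is a 95% interval that covers counting error alone.

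The LK library held 50037534 UMIs after filtering, LSK 11897901 and TBM 22522054. Per cell the monocyte-marker progenitors had 20046 UMIs and 3999.5 genes at the median, against 10781.5 UMIs in the other 2594 LK cells, and carried 35.3% of the library's UMIs. A rule on an absolute count of UMIs takes in deep cells more easily, and the part of depth in the difference from all other LK cells was not tested. The main comparison group was closer in depth: the 625 LK cells outside the rule with at least 50 UMIs of Elane (neutrophil elastase), called Elane-high cells, had a median of 19593 UMIs and 3905 genes. Mitochondrial genes gave 2.07% and ribosomal protein genes 28.4% of UMIs in the progenitors, and 2.02% and 28.3% in Elane-high cells. Scrublet marked 3 of the 3464 LK cells (0.0866%) as doublets and none of the progenitors, which is too few for the caller to have worked, so undetected doublets remain. LK shared 6 barcodes with LSK and 26 with TBM, and none of them met the rule in both libraries.

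Monocytes arise in the marrow from granulocyte-monocyte progenitors, in which the transcription factors PU.1 (Spi1), C/EBP alpha and IRF8 set the balance of lineages. IRF8 is required for normal monocyte and dendritic cell output and restrains the neutrophil program, while GFI1 and C/EBP epsilon drive neutrophil granule genes. Early progenitors of both lineages make the primary granule enzymes myeloperoxidase, elastase, proteinase 3 and cathepsin G, and monocyte progenitors later gain the receptor for M-CSF (Csf1r), Ly6C and the chemokine receptor CCR2.

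Irf8 (ENSMUSG00000041515, chr8:120736358-120756694, plus strand, GRCm38) is a marker of the lineage and was not part of the rule. It was chosen as a marker with earlier results of these data known, so its level is no independent check of the label. Irf8 had 0, 11 and 53 UMIs in the lowest, median and highest monocyte-marker progenitor, and 97.9% of them held at least 1. In Elane-high cells the values were 0, 0 and 18 UMIs, with 49.1% of cells positive, so the 2 groups overlapped in range but their medians lay far apart. The reference for free RNA was 276 erythroid LK cells (at least 10 UMIs of Klf1, Car1 and Rhd together, Elane under 50 and Mpo under 20 UMIs, median 10462.5 UMIs), in which Irf8 should be absent: 5.43% of them held an Irf8 UMI and none more than 2. Of the macrophage, B cell and T and NK cell markers, 3 of 11, 2 of 9 and 0 of 10 genes reached 50 UMIs over both groups, and the lists summed to 14.9, 53.5 and 2.15 CPM in the progenitors and 16.5, 47.9 and 1.94 CPM in Elane-high cells (CPM, UMIs per 1000000 UMIs summed over the cells of a group). Nearly all of the B cell sum was Cd79b, a chain of the B cell receptor complex, at 47.6 and 44.0 CPM in these groups and 3.92 in the erythroid reference, while the T cell gene Cd3e was at 0 in both groups. Granule RNA was present beside Irf8: Mpo (myeloperoxidase) had 3, 205 and 504 UMIs and Elane 0, 134 and 598 UMIs per cell. In the erythroid reference, whose selection capped both genes, Mpo had 0, 2 and 18 UMIs and Elane 0, 1 and 8. There 87.0% of cells held an Mpo UMI and 69.9% an Elane UMI.

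By construction the rule genes separated the groups. F13a1 had 0, 4 and 22 UMIs in the lowest, median and highest progenitor against 0, 0 and 4 in Elane-high cells, Ms4a6c 0, 8 and 36 against 0, 1 and 4, and Ly86 0, 2 and 12 against 0, 0 and 3. All 3 genes were seen in 605 of the 870 cells (69.5%), 2 of them in 221 (25.4%) and 1 in 44 (5.06%). The sum of the 3 ran up to 61 UMIs, and the threshold cuts through a range: 124 progenitors lay at 5 or 6 UMIs and 251 cells outside the rule lay at 3 or 4. Across that edge Irf8 stood at 305 CPM just inside and 204 just outside, Csf1r at 23.9 and 18.5, Ctss at 19.2 and 15.2, Cebpe at 73.8 and 109, and Elane at 7832 and 8891. A further 1664 LK cells had no UMI of the 3 genes, and of the 276 erythroid reference cells 263 had none and the rest 1.

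**Figure D1:**
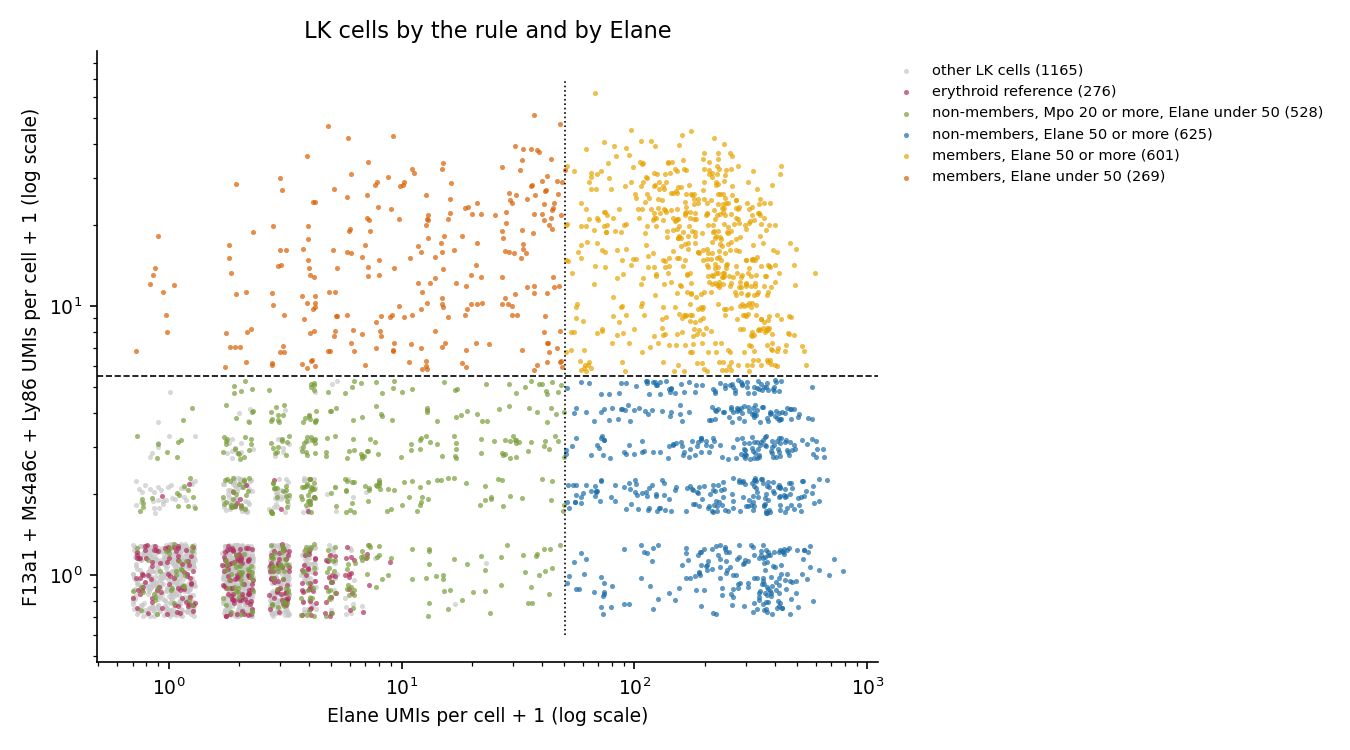
Each point is 1 of the 3464 LK cells, with Elane UMIs plus 1 on the x axis and the summed UMIs of F13a1, Ms4a6c and Ly86 plus 1 on the y axis, both on log scales and slightly jittered. Lines mark the rule at 5 marker UMIs (dashed) and the Elane threshold of 50 UMIs (dotted), and the progenitors lie above the dashed line on both sides of the dotted one, 269 to its left and 601 to its right.

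Elane RNA split the monocyte-marker progenitors without a gap. Of the 870 cells, 601 (69.1%, 65.9% to 72.1%) had at least 50 Elane UMIs and 269 (30.9%, 27.9% to 34.1%) had fewer, with 58 cells between 40 and 60. Seen from the other side, 601 of the 1226 LK cells with at least 50 Elane UMIs (49.0%) met the monocyte-marker rule. The plot of marker UMIs against Elane UMIs shows both sides of this overlap as 1 continuous cloud.

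Upstream sequences of 6 genes are shown because these genes carry the contrasts described below. Ctss and Ms4a4c have the highest ratios to Elane-high cells among genes with at least 200 UMIs. Ly6c2 is an abundant monocyte antigen whose level differs within the progenitors. Irf8 is a marker that goes with the label, and Elane and Prtn3 are the granule genes that both groups share. Each stretch has 150 bases that end before the first transcript start in RefSeq or GENCODE M21 (sequence from the RefSeq promoter table, GRCm38.p6, 5' to 3' on the gene's strand), and capitals mark a match to a motif of PU.1 (GAGGAAGT), IRF factors (GAAA, any 2 bases, GAAA) or C/EBP factors (TTGCNNAA), each searched on both strands.
Ctss (chr3:95526636-95526785, plus strand): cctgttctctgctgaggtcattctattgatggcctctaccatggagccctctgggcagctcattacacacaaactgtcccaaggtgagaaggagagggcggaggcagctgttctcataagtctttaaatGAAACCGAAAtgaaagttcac
Ms4a4c (chr19:11407511-11407660, plus strand): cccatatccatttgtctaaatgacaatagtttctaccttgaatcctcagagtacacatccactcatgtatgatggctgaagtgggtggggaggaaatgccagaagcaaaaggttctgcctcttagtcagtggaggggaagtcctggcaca
Ly6c2 (chr15:75111972-75112121, minus strand): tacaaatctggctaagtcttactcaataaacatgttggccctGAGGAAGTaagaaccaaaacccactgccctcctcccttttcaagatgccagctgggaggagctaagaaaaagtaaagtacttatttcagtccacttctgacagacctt
Irf8 (chr8:120736208-120736357, plus strand): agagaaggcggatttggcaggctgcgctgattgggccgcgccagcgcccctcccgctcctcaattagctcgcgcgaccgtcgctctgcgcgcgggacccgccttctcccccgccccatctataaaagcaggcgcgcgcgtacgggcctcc
Elane (chr10:79886097-79886246, plus strand): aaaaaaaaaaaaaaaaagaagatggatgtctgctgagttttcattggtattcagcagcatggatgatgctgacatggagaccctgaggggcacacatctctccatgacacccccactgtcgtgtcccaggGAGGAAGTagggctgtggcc
Prtn3 (chr10:79879464-79879613, plus strand): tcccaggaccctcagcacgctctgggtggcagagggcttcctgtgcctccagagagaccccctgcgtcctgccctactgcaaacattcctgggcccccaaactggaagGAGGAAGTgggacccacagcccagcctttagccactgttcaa
Ctss, which encodes the lysosomal protease cathepsin S, held the IRF motif beginning 21 bases before its RefSeq start, and a PU.1 match beginning 2 bases before that start, which runs past the printed stretch. Ly6c2, Elane and Prtn3 held the PU.1 motif beginning 108, 85 and 95 bases before their RefSeq starts. The stretches of Elane and Prtn3 end 66 and 54 bases before that start, because an annotated transcript begins earlier. The printed stretches of Ms4a4c and Irf8 held none of the 3 motifs. Over all 32851 RefSeq promoter windows of 300 bases (250 before to 50 after the start) the PU.1 motif occurred in 3.20%, the IRF motif in 3.44% and the C/EBP motif in 10.8%. A match describes these letters and is not a measured site. No motif share is given for gene sets, because promoters were matched for only 173 of the 222 genes at least 2-fold higher and 133 of the 182 at least 2-fold lower than in Elane-high cells, which makes that check void.

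Among transcription factors, the monocyte-marker progenitors differed from Elane-high cells in a handful of regulators while the shared myeloid factors were level. Over the 10066 genes with at least 50 UMIs in both groups together, 222 (2.21%) were at least 2-fold higher in the progenitors and 182 (1.81%) at least 2-fold lower, and the median gene differed by 0.02 (log2). Of the 37 factors measured out of 49 listed, 4 were at least 2-fold higher, 2 at least 2-fold lower, and the list median was 0.07. Irf8 stood at 601 CPM against 86.3, a log2 ratio of 2.80 (2.71 to 2.89) or 6.97-fold. Irf5, a factor of Toll-like receptor signaling, stood at 16.8 against 3.96 CPM (2.09, 1.65 to 2.55). Klf4, which acts in monocyte differentiation, stood at 25.3 against 5.33 CPM (2.25, 1.87 to 2.64), and its relative Klf2 at 181 against 84.5 (1.10). These 4 are the factors on the higher side.

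The factors of the neutrophil program lay on the lower side. Cebpe, encoding C/EBP epsilon, stood at 32.7 CPM in the progenitors and 235 CPM in Elane-high cells, a log2 ratio of -2.85 (-2.98 to -2.72). Gfi1 stood at 20.9 against 66.8 CPM (-1.67, -1.86 to -1.50). Spi1, encoding PU.1, was at 298 and 308 CPM (-0.05, -0.11 to 0.01), an interval for counting error that spans equality. Cebpa was at 146 and 171 CPM (-0.23), Cebpb, Cebpd and Irf1 differed by 0.07, 0.13 and 0.02, and the proliferation-linked factors Myb and Myc were lower by less than 2-fold (-0.72 and -0.35).

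**Figure D2:**
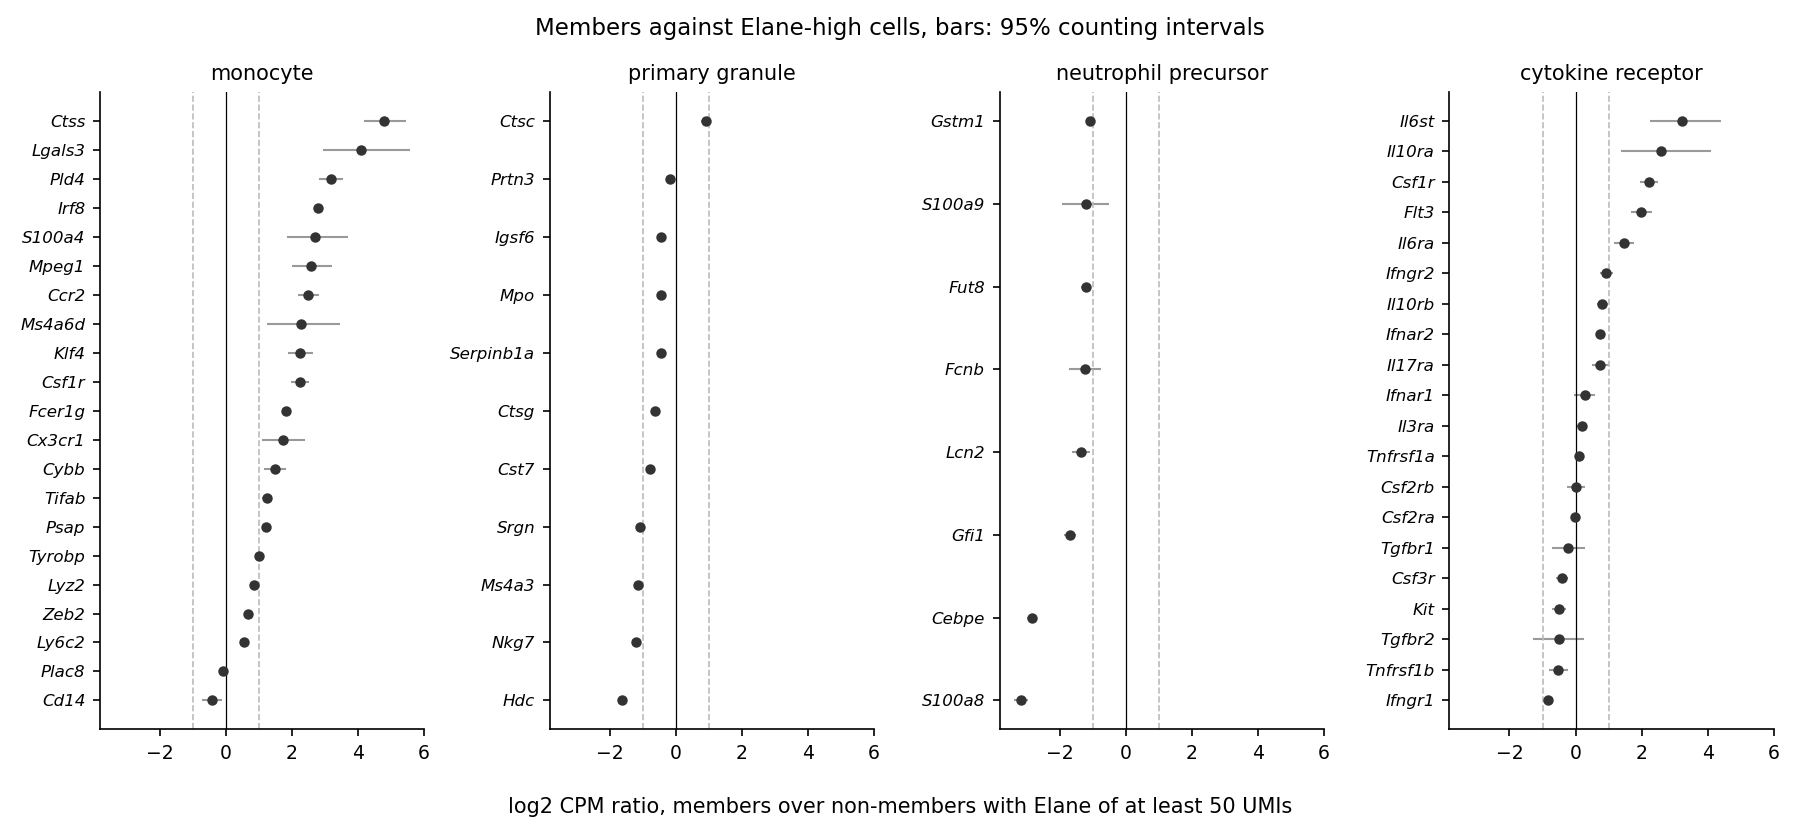
Each point is a gene of the monocyte, primary granule, neutrophil precursor or cytokine receptor list, placed by its log2 ratio of CPM in the 870 progenitors (members) over the 625 Elane-high LK cells, with its 95% counting interval as a bar and dashed lines at 2-fold. Elane, which defined the comparison group, is left out. The monocyte genes lie mostly to the right, with a median of 1.81, and the neutrophil precursor genes to the left, with a median of -1.29.

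Some cytokine receptors were higher in the progenitors. Of 20 cytokine receptor genes measured out of 26, 5 were at least 2-fold higher in the progenitors and none at least 2-fold lower, with a median of 0.23. Csf1r, the M-CSF receptor, had 0, 1 and 7 UMIs per cell against 0, 0 and 4 in Elane-high cells, so that single cells overlapped, and summed to 48.8 against 10.4 CPM (2.23, 1.96 to 2.51). Flt3, the FLT3 ligand receptor of multipotent and lymphoid-primed progenitors, summed to 31.1 against 7.84 CPM (1.99, 1.68 to 2.32). The interleukin-6 receptor chains Il6ra (26.6 against 9.69 CPM, 1.46) and Il6st (6.84 against 0.727 CPM, 3.23) and the interleukin-10 receptor Il10ra (2.94 against 0.485 CPM, 2.60) complete the 5.

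Receptors that serve both lineages were near level. Csf2ra, the GM-CSF receptor chain, stood at 70.8 and 72.1 CPM (-0.03), Csf2rb differed by 0.02, and Csf3r, the G-CSF receptor, was at 29.7 and 39.6 CPM (-0.41). Kit, whose protein was used for sorting, was at 21.5 and 30.4 CPM (-0.50). Ifngr1, the ligand-binding chain of the interferon gamma receptor, was lower at 196 against 350 CPM (-0.84), whereas its partner chain Ifngr2 was higher at 44.5 against 23.4 (0.93).

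Among 22 migration and adhesion genes measured, 5 were at least 2-fold higher and 2 at least 2-fold lower. Ccr2, the receptor that takes monocytes out of the marrow, had 0, 0 and 8 UMIs per cell and a UMI in 49.0% of progenitors, against 0, 0 and 6 UMIs and 10.6% of Elane-high cells. Its summed level was 40.4 against 7.19 CPM (2.49, 2.17 to 2.83). Cx3cr1, the fractalkine receptor of patrolling monocytes, was low in both at 6.62 and 2.02 CPM (1.71). The integrin chain Itgb7 (11.5 against 2.75 CPM, 2.07), the chemokine Ccl3 (146 against 58.9 CPM, 1.31) and the adhesion molecule Emb (748 against 337 CPM, 1.15) were the others on the higher side. The tetraspanin Cd9 stood lower at 40.8 against 94.0 CPM (-1.20), and so did the neutrophil chemokine receptor Cxcr2, at 1.87 against 3.96 CPM (-1.08).

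Ly6c2 encodes the Ly6C antigen of classical monocytes, and its protein was among those depleted before sorting. The RNA was nevertheless abundant: the progenitors held 0, 22 and 119 UMIs per cell and Elane-high cells 0, 9 and 133. The summed level was 1304 against 892 CPM, which is 0.55 on the log2 scale (0.51 to 0.58) and under 2-fold. The direction depended on Elane: in the progenitors with under 50 Elane UMIs alone Ly6c2 stood at 255 CPM, a log2 ratio of -1.805 to the same Elane-high cells. Surface Ly6C was not measured, and reads of Ly6c2 may be shared with its near copy Ly6c1, as may those of the Ms4a4, Ms4a6 and Ifi20 families with their relatives.

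Of the 21 monocyte list genes measured, 16 were at least 2-fold higher in the progenitors than in Elane-high cells, none was at least 2-fold lower, and the median was 1.81. The list was put together with results of these cells known, so the count is a description. Ctss stood at 51.1 against 1.86 CPM (4.78, 4.19 to 5.45), 27.5-fold, and Lgals3, the lectin galectin-3, at 8.26 against 0.485 CPM (4.09). Signaling adaptors of Fc and other activating receptors were higher too: Fcer1g stood at 492 against 141 CPM (1.81) and Tyrobp at 678 against 335 (1.01). Members that did not reach 2-fold were Cd14 (11.1 against 14.8 CPM, -0.42), Plac8 (5981 against 6311 CPM, -0.08), Ly6c2, Zeb2 (0.68) and Lyz2 (346 against 191 CPM, 0.86), the last encoding lysozyme.

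Lysosomal genes were higher in part. Of 20 genes, 4 were at least 2-fold higher and none at least 2-fold lower, with a median of 0.34. Besides Ctss these were Ctsh (cathepsin H, 78.0 against 14.7 CPM, 2.41), Psap (prosaposin, 371 against 160 CPM, 1.21) and Lgmn (legumain, 67 against 2 UMIs, 4.55 with an interval of 2.64 to 7.63). Cathepsins B and D, which most cells make, were level, with Ctsb at -0.04 and Ctsd at -0.23. The endolysosomal nuclease gene Pld4 stood at 48.5 against 5.41 CPM (3.16).

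The Ms4a genes form a cluster of related membrane proteins on chromosome 19, to which the rule gene Ms4a6c belongs, and its relatives differed in sign. Ms4a4c stood at 20.4 against 0.485 CPM (5.40, 4.26 to 6.85), the highest ratio among named genes, Ms4a4b at 10.7 against 0.485 (4.47), Ms4a6d at 3.51 against 0.727 (2.27) and Ms4a6b at 61.5 against 26.1 (1.24). Ms4a3, the member known from granulocyte-monocyte progenitors, stood lower at 795 against 1749 CPM (-1.14). Trem2, a lipid-sensing receptor that signals through Tyrobp, had 127 UMIs against 3 (4.89, 3.31 to 7.19).

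The phagocyte oxidase and antigen presentation differed little. Of the 6 oxidase genes only Cybb, the catalytic subunit, passed 2-fold (20.6 against 7.43 CPM, 1.47), while Cyba, Ncf1 and Ncf4 differed by -0.05, 0.11 and 0.52. Class II genes were scarce: Cd74, the invariant chain, had 20 UMIs in all 870 cells (1.13 CPM) against 11.3 CPM in all other LK cells, and H2-Ab1 stood at 27.3 against 38.2 CPM in Elane-high cells (-0.48). The peptide exchange genes H2-DMa and H2-DMb2 were higher by 0.57 and 1.13. None of the 10 class I genes passed 2-fold.

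Primary granule RNA was shared with the Elane-high cells at a somewhat lower level. None of 12 granule genes was at least 2-fold higher, 4 were at least 2-fold lower, and the median was -0.71. Mpo summed to 10009.9 against 13701 CPM (-0.45), Prtn3 to 4406 against 5024 (-0.19) and Ctsg to 3913 against 6113 (-0.64). The 4 lower genes were Hdc (histidine decarboxylase, 60.7 against 188 CPM, -1.63), Nkg7 (596 against 1370 CPM, -1.20), Ms4a3 and Srgn (the granule proteoglycan serglycin, -1.10). Ctsc, the protease that activates the others, ran the opposite way at 80.5 against 42.6 CPM (0.92). Elane, among the 12, defined the comparison group, while progenitors could have any Elane level, so this contrast is partly set by the selection. With at least 50 Elane UMIs on both sides, 1 of the 12 genes was at least 2-fold higher and 1 at least 2-fold lower (median -0.49).

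Genes of later neutrophil stages were lower. All 8 measured genes of the 14 on the neutrophil precursor list were at least 2-fold lower in the progenitors, with a median of -1.29. S100a8, a calprotectin subunit, stood at 13.4 against 120.4 CPM (-3.17), Lcn2 (lipocalin-2) at 10.8 against 27.5 (-1.35), and Gstm1 (a glutathione transferase of neutrophil progenitors) at 423 against 903 (-1.10). Fcnb, S100a9 and Fut8 had log2 ratios of -1.23, -1.21 and -1.21, beside Cebpe and Gfi1. Camp, Ngp and Ltf, granule genes of myelocytes, did not reach 50 UMIs over both groups.

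Among all genes with at least 200 UMIs over both groups, the highest ratios after Ms4a4c and Ctss were Nrp1 (a semaphorin co-receptor, 17.0-fold), Dglucy (12.4-fold), Lpxn (leupaxin, a focal adhesion adaptor, 12.2-fold), Ccl5 (11.04-fold), Tpm4 (a tropomyosin, 10.9-fold), Ifi209 (an interferon-inducible DNA sensor relative, 9.55-fold), Pld4 (8.97-fold), Prdx4 (a peroxiredoxin of the secretory pathway, 8.54-fold), Cyp4f18 (7.84-fold) and Cd302 (a lectin-like receptor, 7.74-fold). The value of Ccl5 rests on few cells, since 1 cell gave 134 of its 205 UMIs and 4.02 CPM were left without that cell, against 11.6 with it. On the lower side stood Wfdc21 (22.1-fold lower), S100a8 (8.98-fold), Cebpe (7.19-fold), Far2 (6.73-fold), Pglyrp1 (a bactericidal granule protein, 6.58-fold), Cd63 (a granule tetraspanin, 124 against 815 CPM, 6.56-fold), Cpa3 (the mast cell carboxypeptidase, 6.06-fold), Ndrg2, Itga2b, Hsd11b1, Siglecf and Tfr2 (5.04-fold to 4.27-fold). Itga2b encodes the platelet integrin chain CD41, Siglecf a lectin of eosinophils and Tfr2 the second transferrin receptor.

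Markers of other cell types were checked list by list. Against Elane-high cells, 3 of 3 mast cell and basophil genes and 2 of 2 eosinophil genes measured were at least 2-fold lower, as were 3 of 8 erythroid and 2 of 5 megakaryocyte genes. Prg2, an eosinophil granule protein, had no UMI in the progenitors and 136 in Elane-high cells, of which 113 lay in 1 cell. Among dendritic cell genes, 1 of 5 conventional and 1 of 4 plasmacytoid markers were at least 2-fold higher, Clec10a (8.77 against 3.72 CPM, 1.24) and Cox6a2 (5.6 against 2.42 CPM, 1.21), while all 45 Ly6d and all 4 Siglech UMIs of the progenitors came from 1 cell. Adgre1, which encodes the macrophage antigen F4/80, stood at 6.73 against 1.53 CPM (2.13), and Vcam1 lower at 2.04 against 11.7 (-2.52).

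Genes of proliferation were slightly higher, by less than 2-fold. Of 33 G2/M genes 32 lay above 0 and none passed 2-fold, with a median of 0.43, and of 29 S phase genes 27 lay above 0, with a median of 0.16. Over all genes measured the median was 0.02 and the quartiles -0.14 and 0.18. The S phase median lay inside these quartiles and the G2/M median above them. Mki67 stood at 34.1 against 19.6 CPM (0.80) and Top2a at 108 against 65.8 (0.72). The cyclin gene Ccnd1 differed more, at 20.1 against 5.73 CPM (1.81). Lists for glycolysis, the respiratory chain, the nucleolus and cholesterol synthesis had no gene past 2-fold and medians of -0.03, 0.05, 0.02 and -0.00.

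Against all other LK cells the picture was dominated by what the progenitors lacked. Of 11164 genes measured, 223 (2.0%) were at least 2-fold higher and 983 (8.81%) at least 2-fold lower, around a median of -0.14. Of 14 erythroid genes 12 were at least 2-fold lower (median -4.72), of 8 megakaryocyte genes 7 (median -4.11), of 7 mast cell and basophil genes 5 (median -4.74) and of 13 stem and multipotent progenitor genes 10 (median -2.35). Car1, the carbonic anhydrase of erythroid progenitors, stood at 6.56 against 455 CPM, 69.4-fold lower, and the platelet glycoprotein gene Gp5 was 82.6-fold lower. Gata2, a factor of stem, mast and erythroid cells, was at 11.7 against 124 CPM, and Meis1 at 10.3 against 52.9.

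The monocyte list was again higher, with 16 of 21 genes at least 2-fold and all 21 above 0 (median 1.98). The highest named genes were Ms4a4c (25.4-fold), Ifi209 (16.7-fold), AI839979 (13.8-fold), Pld4 (12.2-fold), Nrp1 (9.88-fold), Cyp4f18 (9.76-fold), Ctsh (9.35-fold) and Ccr2 (9.28-fold), and Irf8 was 8.21-fold higher. The genes Slc38a5, Cldn13, Prss50, Col5a1 and Ermap had 1 to 3 UMIs in the progenitors, and Slc38a5, for example, gave a log2 ratio of -7.64 with an interval of -12.94 to -5.15. Primary granule genes did not pass 2-fold in either direction against this mixed group (0 of 12, median 0.30). Of 18 interferon response genes measured, 9 were at least 2-fold lower and 3 lay above 0 (median -1.09). The list as a whole summed to 1691 against 1937 CPM, and Ifi209 is not on it. The S phase list had a median of 0.17 here, with 22 of 29 genes above 0, and the G2/M list a median of 0.05, with 19 of 33 above 0. None of these genes passed 2-fold. The quartiles over all genes measured were -0.42 and 0.08, with the G2/M median inside them and the S phase median above.

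**Figure D3:**
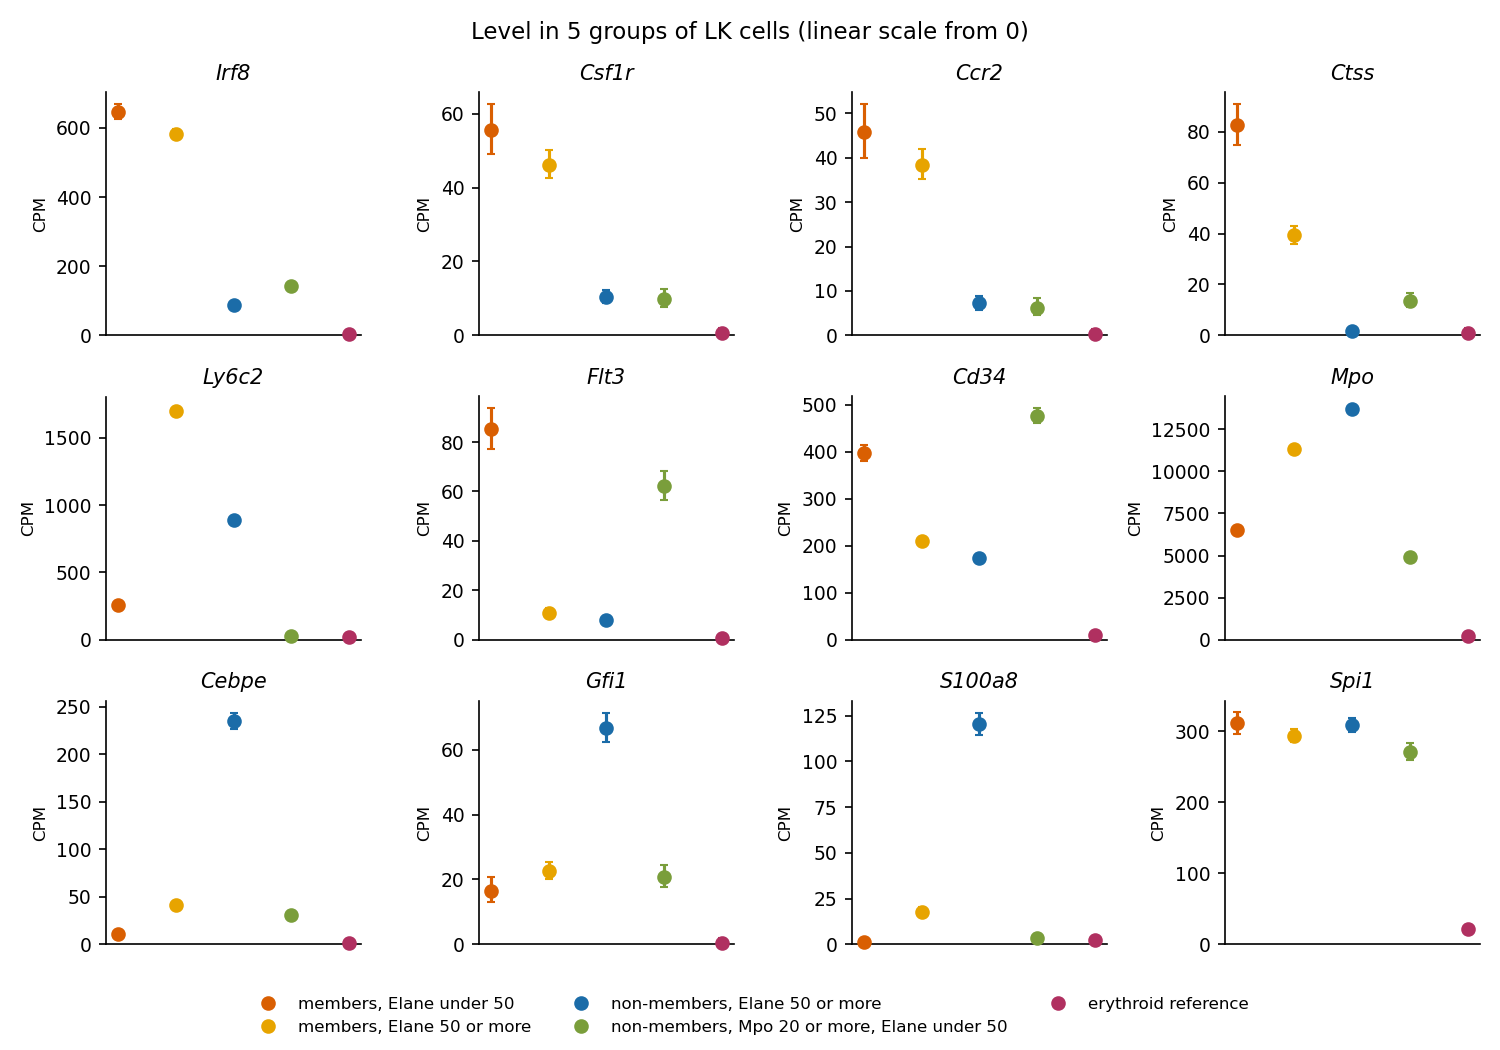
Summed levels (CPM, points on linear axes from 0) of 12 genes in 5 groups of LK cells: progenitors with Elane under 50 UMIs, progenitors with Elane at 50 or more, Elane-high cells, other cells with at least 20 Mpo but under 50 Elane UMIs, and the erythroid reference, with 95% counting intervals. Irf8, Csf1r and Ccr2 are high in both progenitor groups, and Flt3 and Cd34 in the low-Elane progenitors and the cells chosen by Mpo, but not in the erythroid reference. Cebpe, Gfi1 and S100a8 are high in Elane-high cells, and Spi1 is similar in the first 4.

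Within the monocyte-marker progenitors, Elane marked a graded shift. More Elane went with less early progenitor RNA and more granule RNA, while Irf8 and Spi1 differed little. Comparing the 269 cells under 50 Elane UMIs (median 17883 UMIs per cell) with the 601 at or above it (median 20853), 132 of 9213 genes (1.43%) were at least 2-fold higher and 148 (1.61%) at least 2-fold lower. Irf8 stood at 648 and 584 CPM, Csf1r at 55.7 and 46.2, Ccr2 at 45.8 and 38.4 and Spi1 at 311 and 293. Flt3 had a median of 1 UMI per cell in the cells with little Elane, 68.0% of which held a UMI, against 17.8% of the others, and summed to 85.1 against 10.8 CPM (2.98, 2.70 to 3.26). Of 5 lymphoid-primed genes 3 were at least 2-fold higher in the low-Elane cells (median 1.55): Flt3, Dntt (terminal transferase, 9.53 against 0.622 CPM) and Satb1 (a chromatin organizer, 45.3 against 15.5 CPM). Dntt reached the minimum of 50 UMIs through the low-Elane group, so its place in this count is partly set by that minimum. The 75 cells with 0 to 4 Elane UMIs held 42 of its UMIs. Egfl7 (3.83-fold), Tspan13 (3.52-fold), Lsp1 (2.67-fold), Bcl2 (the survival factor, 2.65-fold) and Il4ra (2.61-fold) were the other named genes on that side, besides Ccl5, whose value comes largely from 1 cell. Of 3 plasmacytoid dendritic cell genes measured, 2 were at least 2-fold higher in the low-Elane cells (median 1.10). Of 5 class II and 5 conventional dendritic cell genes, 0 passed 2-fold (medians 0.75 and 0.00).

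On the other side, Ly6c2 had a median of 1 UMI and a highest value of 52 in the low-Elane progenitors and a median of 35 in the rest, with summed levels of 255 and 1697 CPM, 6.65-fold apart. Clec4a2 (a C-type lectin receptor, 21.3-fold), S100a8 (12.3-fold), Gda (guanine deaminase, 12.1-fold), Chst13 (10.8-fold), Mgl2 (a lectin of macrophages, 10.4-fold), Dmkn (8.003-fold) and Clec5a (6.52-fold) were likewise lower in the low-Elane cells. Fcgr3, the Fc gamma receptor III used with CD34 to gate granulocyte-monocyte progenitors, stood at 30.6 against 196 CPM, and Cd34 ran the opposite way at 397 against 211. Of the 7 neutrophil precursor genes measured 5 were at least 2-fold lower in the low-Elane cells (median -2.32), of 21 monocyte genes 5 were lower and 1, Ctss, higher (median -0.31), and of 12 granule genes, Elane itself included, 5 were lower (median -0.81).

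In finer steps of Elane (0 to 4, 5 to 19, 20 to 49, 50 to 99, 100 to 199, and 200 or more UMIs, with 75, 104, 90, 99, 209 and 293 cells) the levels were ordered. Flt3 stood at 138.9, 93.1, 36.2, 24.5, 13.5 and 5.12 CPM over these steps. Ly6c2 stood at 38.2, 144, 538, 868, 1441 and 2103 CPM. Irf8, by contrast, stayed between 542 and 693 CPM in all 6 steps. Ccr2 was highest in the middle, at 27.3 CPM in the first step, 59.96 at 50 to 99 Elane UMIs and 27.4 in the last. Cd34 stood at 461 CPM in the first step and 170 in the last, Ctss at 92.9 and 25.02, Mpo at 4025 and 12245, and Cebpe at 8.59 and 52.6. Median UMIs per cell went from 17018 to 21627 over the same steps, so depth moved with Elane too, and its part in these levels was not tested. The last step, with the most Elane, still had a Cebpe level below the 235 CPM of Elane-high cells.

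**Figure D4:**
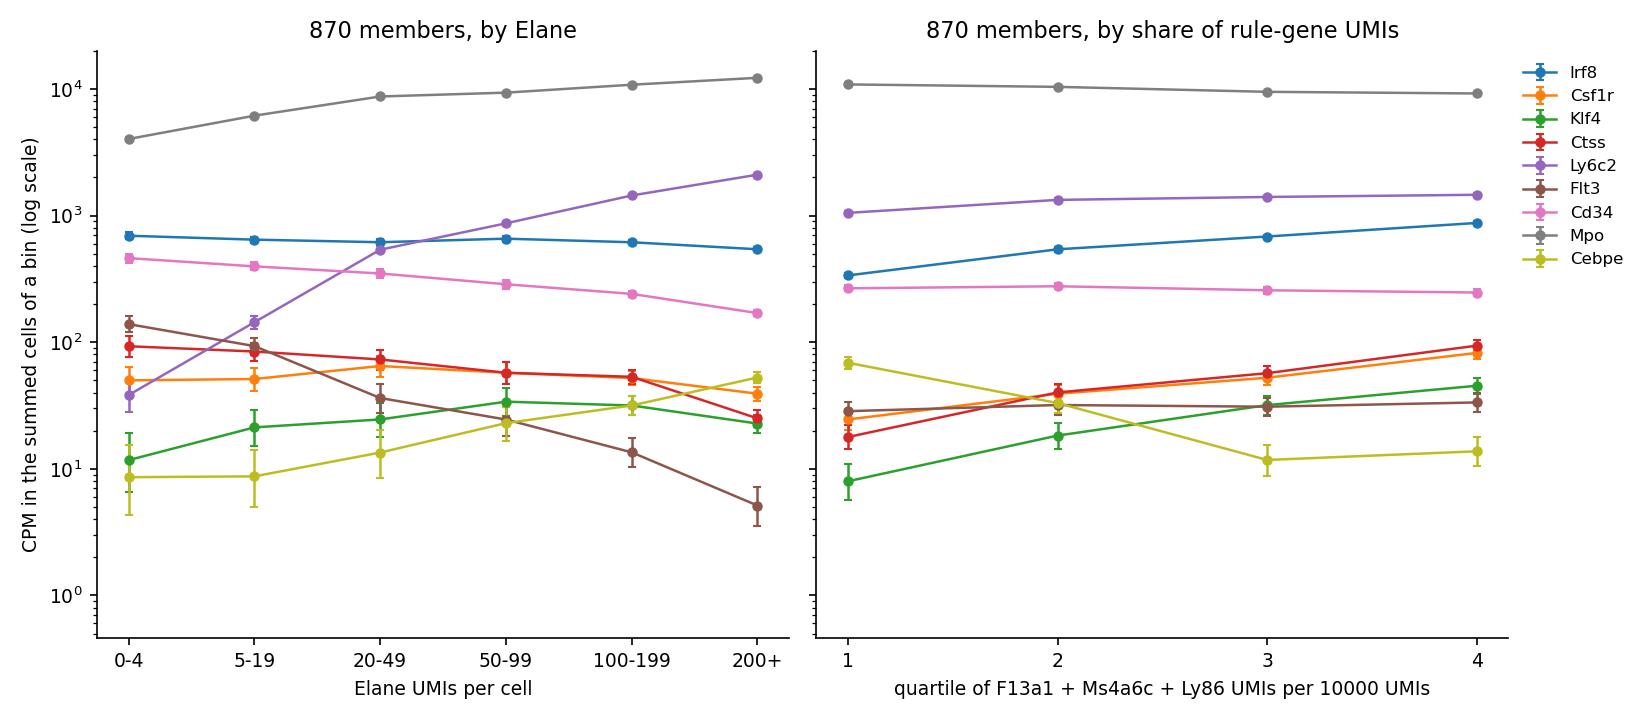
Summed levels (CPM, log axis) of 9 genes in the progenitors, by step of Elane UMIs per cell and by quartile of the share of UMIs that came from the 3 rule genes, with 95% counting intervals. Along Elane, Flt3 goes from 138.9 to 5.12 CPM and Ly6c2 from 38.2 to 2103 while Irf8 is nearly flat, and along the marker share Irf8 goes from 337 to 874 while Flt3 is nearly flat.

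The share of a cell's UMIs that came from the rule genes, built from the same UMIs as the rule, was used as a second order among the progenitors, as a description. It ran from 1.14 to 28.0 per 10000 UMIs, with quartile bounds of 4.46, 7.18 and 10.6. From the lowest to the highest quartile, Irf8 stood at 337, 541, 683 and 874 CPM, Csf1r at 24.5, 39.2, 52.4 and 82.3, and Klf4 at 7.97, 18.3, 31.8 and 45.3. Pld4 stood at 15.7 in the lowest and 97.7 in the highest quartile, Ctsh at 31.9 and 133, and Psap at 227 and 588. Cebpe went the other way, from 68.8 over 33.1 to 11.7 and 13.7 CPM, and S100a8 from 34.6 to 2.61. Flt3 (28.5, 31.9, 30.9 and 33.4 CPM), Cd34 (266 and 247 CPM at the ends) and Prtn3 (4283 and 4452 CPM) hardly differed along this order, and Mpo stood at 10859 and 9211. Some genes varied along both orders. Ctsh also stood at 24.97 CPM in the first Elane step and 90.4 in the last, Klf4 at 11.7 and 22.8 with 33.9 at 50 to 99 Elane UMIs, and Ly6c2 at 1050 CPM in the lowest and 1459 in the highest quartile of the marker share.

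The marker share was also split within each Elane class. Among progenitors with little Elane, Irf8 stood at 443 CPM below the median marker share (124 cells) and 820 at or above it (145 cells), and with high Elane at 430 (311 cells) and 758 (290 cells). Klf4 stood at 11.3 and 27.1 CPM in the low-Elane cells and at 13.3 and 43.3 in the high-Elane cells. Ctsh stood at 12.7 and 75.9 CPM in the low-Elane cells and at 57.1 and 126.7 in the high-Elane cells, and Ly6c2 at 60.3 and 419 and at 1545 and 1870. Flt3 was at 90.2 and 80.8 CPM with little Elane and at 10.7 and 10.96 with much of it. Cebpe was highest, at 62.5 CPM, with high Elane and a low marker share, against 3.05 CPM with low Elane and a high share.

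A comparison with at least 50 Elane UMIs on both sides brought Elane closer without making it level, with medians of 196 and 276 UMIs per cell. The 601 high-Elane progenitors had 180 of 9775 genes (1.84%) at least 2-fold higher and 187 (1.91%) at least 2-fold lower than the 625 Elane-high cells. The monocyte list again had 16 of 21 genes at least 2-fold higher (median 1.89), among them Ctss (21.2-fold). Ms4a4c (36.6-fold), Ifi209 (10.4-fold) and Pld4 (9.63-fold) were higher as well. Of the 8 neutrophil precursor genes, 5 were at least 2-fold lower here (median -1.18), against 8 over all progenitors. Irf8 was at 584 against 86.3 CPM and Cebpe at 41.2 against 235, 5.72-fold lower. Ly6c2 was at 1697 against 892 CPM (0.93), and Mpo at 11329.9 against 13701 (-0.27), so granule RNA was closer here than over all progenitors.

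The progenitors with little Elane were set against 528 other LK cells with at least 20 Mpo UMIs and under 50 Elane UMIs (median 12740 UMIs per cell, against 17883). Of 8775 genes, 106 (1.21%) were at least 2-fold higher and 274 (3.12%) at least 2-fold lower. Irf8 stood at 648 against 142 CPM (2.19), Csf1r at 55.7 against 9.92 (2.49), and 10 of 16 monocyte genes were at least 2-fold higher (median 1.68). Ifi209 (11.7-fold), Ly6c2 (10.5-fold), Ctsh (9.48-fold), Tifab (8.77-fold), Pld4 (8.08-fold), Ccr2 (7.34-fold) and Slpi (6.63-fold, a secreted protease inhibitor) led. All 5 mast cell and basophil genes measured were at least 2-fold lower (median -3.74), among them Cpa3 at 48.9 against 652 CPM, and Apoe (11.8-fold), Itga2b (10.7-fold), Slc22a3 (8.87-fold), Gimap6 (6.95-fold) and Gimap1 (6.53-fold) were lower too. Flt3 and Cd34, at 85.1 against 62.2 CPM and 397 against 477, were similar in both groups, as the plot of levels in 5 groups shows.

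Shares of cells with a UMI were compared after each cell was thinned to 5000 UMIs, which left out none of the progenitors, 1 Elane-high cell, 5 cells of the Mpo group and 21 erythroid reference cells. Irf8 was then seen in 85.5% of progenitors (97.9% unthinned), 26.9% of Elane-high cells (49.1%), 36.3% of the Mpo group (55.5%) and 3.14% of the erythroid reference (5.43%). Csf1r was seen in 21.4% (59.1%), 5.77% (16.5%), 5.35% (11.4%) and 0.784% (0.725%). Cebpe was seen in 13.6% of progenitors (31.6%) and 58.3% of Elane-high cells (88.2%), against 0.784% (1.81%) in the reference, so the order of the groups was the same as in CPM. Irf8 and Elane were seen together in 81.0% of the thinned progenitors, 26.9% of Elane-high cells and 1.18% of the reference. Elane-high cells hold Elane by selection, so their value repeats their Irf8 share. Before thinning, 69.9% of the reference cells held an Elane UMI, so a single Elane UMI can be free RNA. The joint share alone therefore does not show co-expression. A UMI of Mki67 or Top2a was seen in 39.1% of progenitors (73.6%), 27.2% of Elane-high cells (60.3%), 42.4% of the Mpo group (60.6%) and 35.3% of the reference (49.6%), so the progenitors lay above the Elane-high cells and within the range of the other groups.

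The total marrow library, whose cells were captured separately, gave a second look at the contrast. There 486 of 4290 cells met the rule (11.3%, 10.4% to 12.3%), of which 42 had at least 50 Elane UMIs (median 19819 UMIs per cell), against 56 Elane-high cells outside the rule (median 17491.5). Of 3755 genes measured, 207 (5.51%) were at least 2-fold higher and 164 (4.37%) at least 2-fold lower in the 42 cells, and 63.8% of all genes lay above 0. The matching LK contrast had 180 genes at least 2-fold higher and 187 at least 2-fold lower, most with too few UMIs in TBM to be compared. With at least 50 UMIs in both libraries and the rule genes left out, 55 higher and 40 lower genes remained. The minimum sums both TBM groups, so a gene can pass through the group where it is high. The counts that follow do not cover the genes left out. Of the 55 higher genes, 51 lay above 0 in TBM and 46 were at least 2-fold higher. Of the 40 lower ones, 38 lay below 0 and 36 were at least 2-fold lower. Across all genes the log2 ratios of the libraries had a Pearson correlation of 0.748 and a Spearman correlation of 0.534, which describes genes of the same rule in both and not replicates of a condition.

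Among the 55 higher and 40 lower genes compared, the differences were larger in TBM at the median. Irf8 stood at 717 CPM in the 42 cells and 21.7 in the 56 (5.05, 4.44 to 5.73), Ctss at 156 against 5.91 (4.72), and Ccr2 at 157 against 1.97, the latter from 2 UMIs (6.32, 4.43 to 9.38). Csf1r stood at 84.3 CPM against 2.95, the latter from 3 UMIs (4.83, 3.23 to 7.15). Klf4 had 103 UMIs against 0, a log2 ratio of at least 5.35 when set against a floor of 3 counts in the 56 cells. Cebpe stood at 26.9 against 606 CPM (-4.49), S100a8 at 1768 against 40647 (-4.52) and Gfi1 at 10.5 against 111 (-3.40), while Spi1 was level at 407 and 403 (0.02). The median ratio over the 55 higher genes was 2.87 in TBM and 1.40 in LK. The Elane-high cells themselves differed between the libraries, with S100a8 at 40647 CPM in TBM and 120.4 CPM in LK. A few genes ran in opposite directions: Cybb was higher in the LK progenitors (1.80) and lower in the TBM cells (-0.98), Clec5a likewise (1.17 and -0.83), and the basophil protease Mcpt8 (-1.32 and 0.94) and Apoe (-1.60 and 0.67) the other way round, the TBM interval of Apoe spanning 0 (-0.05 to 1.40).

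**Figure D5:**
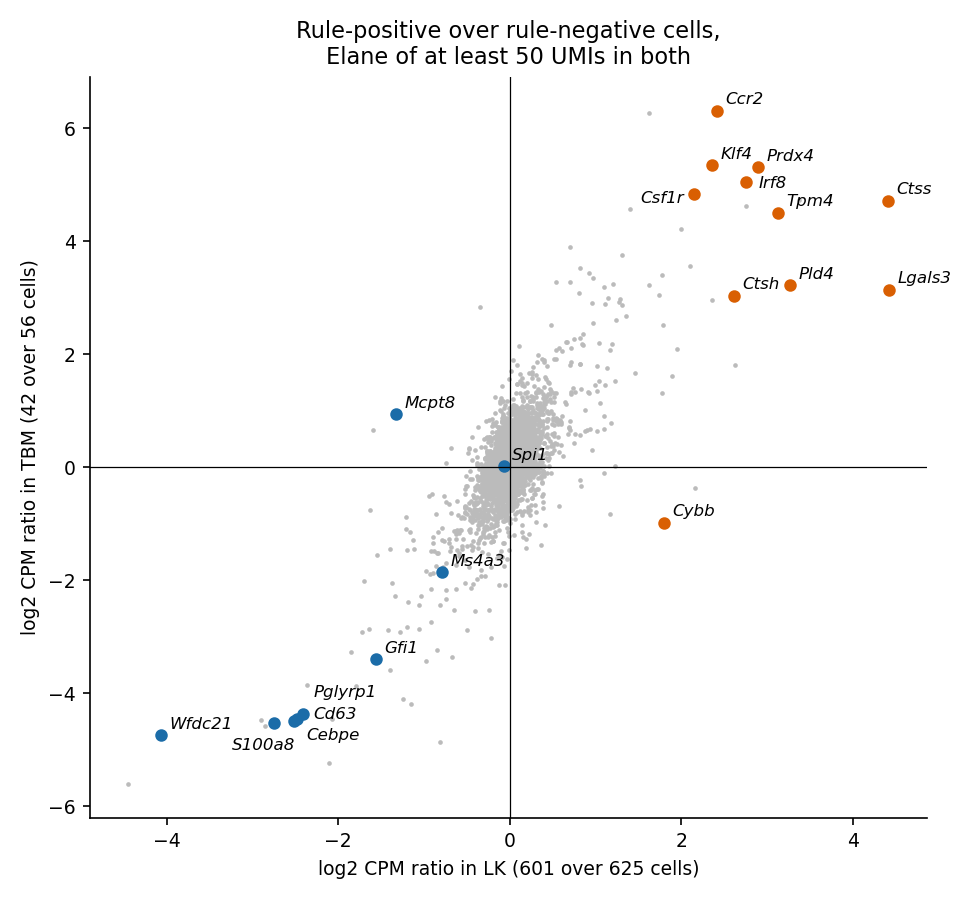
Each point is 1 of 3755 genes, with the log2 ratio of high-Elane progenitors (601 cells) over Elane-high cells (625) in LK on the x axis and the same contrast in TBM (42 over 56 cells) on the y axis, labelled genes being orange where the LK ratio is above 0 and blue where it is below. Irf8, Csf1r, Ctss and Ccr2 lie at the upper right and Cebpe, Gfi1 and S100a8 at the lower left in both libraries, and Klf4 is drawn against the floor in TBM.

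Most rule-positive cells of TBM had little Elane and more RNA of mature monocyte genes. The 444 such cells (median 6182 UMIs) had Irf8 at 649 CPM, close to the 601 of the LK progenitors, but Csf1r at 198 against 48.8, Ccr2 at 781 against 40.4, Lyz2 at 23266 against 346 and Cd74 at 3155 against 1.13. Cd74 was not particular to them, at 2841 CPM in the rule-negative TBM cells. It was also uneven among the 444 cells, with a median of 1 UMI and at least 10 in only 90. Neutrophil granule and hemoglobin RNA was higher in these TBM cells too. The 14 neutrophil precursor genes summed to 16024 CPM there, against 555 in the LK progenitors and 201730 in the rule-negative TBM cells, and the 14 erythroid genes to 8253, 86.5 and 115199 CPM. S100a9 stood at 4336 against 1.64 CPM, Camp at 2118 against 0.905 and Hba-a1, an alpha globin gene, at 2098 against 1.02. S100a9 had at least 2 UMIs in each of the 444 cells (median 11, highest 1566), and 1 cell held 27.7% of the Hba-a1 UMIs. The part of free RNA and doublets in these values was not tested. In turn the LK progenitors had 49.7-fold more Mpo, 29.9-fold more Ms4a3 and 26.1-fold more Nkg7, and Cd34 at 262 against 18.8 CPM and Kit at 21.5 against 2.31. The 444 TBM cells were limited to under 50 Elane UMIs and the LK progenitors were not, so these granule contrasts are partly set by selection. Over all 486 rule-positive TBM cells Mpo stood at 1274 and Ms4a3 at 137 CPM, against 10009.9 and 795 in the LK progenitors. Lgals3 (2511 against 8.26 CPM) and S100a4 (943 against 6.28), which are abundant in mature monocytes, were both low in LK. Depth and gate differ between these libraries, and antibody depletion may differ too. Their part in these values cannot be told apart from the cells.

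In LSK, 18 of 1070 cells met the rule (1.68%, 1.0% to 2.65%, median 26417.5 UMIs). The 11 with little Elane had Irf8 at 911 CPM, Flt3 at 133, Ccr2 at 177 and Cd74 at 2346, and the 7 with at least 50 Elane UMIs had Irf8 at 401 and Cd74 at 14.1. The Cd74 value of the 11 rests on few cells: 4 held a UMI, 2 held at least 10, and 1 held 439 of the 582 UMIs. In the low-Elane LK progenitors Cd74 stood at 2.48 CPM. Of the 870 LK progenitors, 3 carried a barcode also present in LSK and 6 one present in TBM.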

How the data were processed

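Each library was deposited as a matrix of UMI counts, genes by barcodes, without normalization, per the file headers and its whole-number values. Cell Ranger 4.0.0 and the mm10 build are named in the submitters' processing notes, while for the annotation release and the cell calling a setting is not given in the sources used here. All further values were computed from these counts with Python 3.11.15, numpy 2.4.6, scipy 1.17.1, pandas 2.3.3, scanpy 1.11.5 and matplotlib 3.10.9.

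A barcode was kept with 200 genes or more and no more than 10% UMIs of mt- genes. Scrublet calls were counted but not removed, and free RNA was not subtracted. UMIs were summed over the cells of a group and scaled to CPM. Levels have exact Poisson intervals, log2 ratios exact conditional binomial intervals and shares of cells Clopper-Pearson intervals, all at 95%. A gene was measured with at least 50 UMIs over both groups and counted as different at 2-fold, and a gene without UMIs in 1 group was set against a floor of 3 counts. Named genes are the 12 highest and 12 lowest ratios against Elane-high cells and the 8 in each direction for the other LK comparisons (at least 200 UMIs, without rule genes, mt-, ribosomal, receptor segment, sex-linked and unnamed gene models), plus members of the gene lists by role. The members, the lists and these rules were chosen with earlier results of these data known, so no list count is independent evidence. Thinning to 5000 UMIs drew molecules without replacement with a fixed seed. The interval and ratio code was tested on simulated counts. Gene coordinates come from a GRCm38 annotation (GENCODE M21, matched by identifier for 32235 of 32285 genes) and promoters from a RefSeq table of GRCm38.p6. Alternatives varied the marker and Elane thresholds, the scaling, the weight per cell, the UMI minimum and doublet removal.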

Additional observations from a re-analysis of the deposited data

How the results depend on the processing

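The share of LK cells that met the rule was 25.1%, and it moved to 32.36% with a threshold of 3 marker UMIs, 17.23% with 10, and 17.32% with 5 marker UMIs per 10000 UMIs of the cell. It stayed within its interval when cells were thinned to 5000 UMIs with the threshold set to 2 marker UMIs (25.22%), when the mitochondrial limit was 5%, and when Scrublet calls or the top 5% of cells by UMIs were removed (24.0% in the last case). The thinned share left out cells with fewer than 5000 UMIs, which were 241 other LK cells and 0 progenitors. Its threshold of 2 was a choice, and the rule per 10000 UMIs gave 17.32%, so stability to depth is not shown. Counts of genes depended on the UMI minimum by construction, since it sets how many sparse genes are measured: a minimum of 10 UMIs gave 541 higher and 434 lower genes against Elane-high cells and 421 and 1749 against all other LK cells, and a minimum of 200 gave 102 and 82, and 134 and 484. With the low-Elane progenitors alone, 288 genes were at least 2-fold lower than in Elane-high cells, against 182. Gene ratios, 58 in all, were followed under 10 alternatives, and most of these genes were chosen for the size of their ratio. The UMI minimum enters no ratio, and the Elane threshold enters no ratio to all other LK cells, so those values could not change. Removing Scrublet calls took out only 3 cells. Of the 579 values, 575 kept their sign, a count that is for these reasons no measure of robustness. The exceptions were Ly6c2 against Elane-high cells, which was -1.805 with the low-Elane progenitors alone and 0.55 over all, and Cd34 against all other LK cells, which was 0.02 and became -0.07471 with 10 marker UMIs, -0.01819 with 5 per 10000 UMIs and -0.02828 as a mean of per-cell CPM. The cause was not tested. The sizes of the ratios depended on the rule more than their signs did. Without changing sign, 36 of 58 ratios left their counting interval with the low-Elane progenitors alone. With 5 marker UMIs per 10000 UMIs 31 of 58 did so, and with 10 marker UMIs 25 of 57. Median-of-ratios scaling shifted the median gene against all other LK cells from -0.14 to -0.00. Depth limits genes under 50 UMIs, and 1 library per gate limits every comparison. No paired analysis was possible because each gate is a single library.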
